A study of Mus musculus with 20 samples.

Results

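MB49 is a mouse bladder cancer line derived from a male C57BL/6 mouse, and 10 cultures of it were compared here by RNA sequencing: 5 labelled Y chromosome negative (libraries BN2, BN3, BN6, BN9 and BN10) and 5 labelled Y chromosome positive (MB8, MB11, MB17, MB19 and MB34). All 10 were grown in DMEM with fetal bovine serum, and no treatment, time point or passage is given. The comparison covers every listed gene that does not lie on chromosome X or Y, which is 14269 of the 14701 genes listed for the cultures: 14237 on chromosomes 1 to 19, 23 on the mitochondrial chromosome and 9 on unplaced scaffolds. It asks how the autosomal part of the transcriptome differs between cells without and with the Y chromosome. The labels give each culture a code and do not say whether a code is a clone or a separate culture of one, so the p-values speak only for the spread among these samples, which may be technical. The series also holds 5 Y-negative and 5 Y-positive subcutaneous tumors grown in wild-type male C57BL/6 mice, which are used here only for side-by-side values.

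Loss of the Y chromosome is common in cancers of men, bladder cancer among them. The Y chromosome carries few broadly expressed genes, and several of these encode regulators of chromatin, translation and RNA. Among them are the histone demethylases KDM5D and UTY, which have relatives on the X chromosome and on autosomes.

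The deposited tables hold 14557118 to 20866142 counted reads a culture. Kdm5d had 0 reads over the 5 Y-negative cultures and 103 to 685 reads in each Y-positive culture, and Uty had 1 read against 112 to 1006 in the Y-positive cultures, so no library went against its label. BN10 stood apart: its median distance from the mean of its own group, over 9489 genes of at least 5 CPM on average (CPM, read counts scaled to the same library size), was 0.379 on the log2 scale, against 0.123 to 0.253 in the other 9. MB8 and MB11 were the closest pair (Spearman rho 0.993 over the same genes, a description across genes). Their counts still differed by more than sampling noise, with a chi-square of 13.1 per gene, which does not show that they came from separate cultures. They were kept as 2 libraries because the labels list them as 2. With their counts summed into 1 library, edgeR called 3 autosomal genes.

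2 autosomal genes passed the test, and both were higher in the Y-negative cultures: Nes and Hes6. Nes encodes nestin, an intermediate filament protein known from neural progenitors and also found in dividing mesenchymal and tumor cells. It was read at 19.3 CPM in BN2, 7.88 in BN3, 15.9 in BN6, 27.2 in BN9 and 26.3 in BN10 in the Y-negative cultures. In the Y-positive cultures it stood at 2.64 CPM in MB8, 2.48 in MB11, 2.93 in MB17, 0.639 in MB19 and 2.001 in MB34. The lowest Y-negative value therefore lay above the highest Y-positive one, with means of 19.3 ± 7.96 and 2.14 ± 0.902 CPM (SD, n = 5 each). The log2 fold change, Y-negative minus Y-positive here and throughout, was 3.16 ± 0.40 (SE), with an adjusted p of 0.00991 in edgeR's quasi-likelihood test.

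Hes6 encodes a helix-loop-helix repressor that promotes neuronal differentiation and binds its relative HES1, a Notch target. Its level was 24.6 CPM in BN2, 21.2 in BN3, 18.6 in BN6, 16.7 in BN9 and 21.7 in BN10 without the Y chromosome. With it, the level was 6.25 CPM in MB8, 4.35 in MB11, 5.16 in MB17, 10.5 in MB19 and 8.31 in MB34. The groups did not overlap, and the means were 20.6 ± 3.03 and 6.92 ± 2.498 CPM (SD, n = 5 each). The log2 fold change was 1.57 ± 0.24 (SE), with an adjusted p of 0.047 in edgeR. Nes lies on chromosome 3 (chr3:87971078-87980451, plus strand, mm10) and Hes6 on chromosome 1 (chr1:91411483-91414038, minus strand, mm10).

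Of 22 other settings of the test, the Nes call was lost only without MB11 (edgeR adjusted p = 0.0535). Hes6 was less firm and was called in 12 of 22. It missed the threshold without BN2, BN3, BN6, MB8, MB11, MB17 or MB34, with an edgeR adjusted p of at most 0.183 (without MB17). It also missed it when genes of X and Y were left out of the fit, without both BN6 and BN10, and with MB8 and MB11 summed to 1 library. The fold change of Hes6 stayed between 1.44 and 1.77 on leaving out each culture in turn.

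These 2 were called among 12076 autosomal genes that passed the count minimum, which is 0.0166%. Without adjustment, edgeR gave a p under 0.05 for 2037 genes (16.9%), of which 1173 were higher (9.71%) and 864 lower (7.15%) in the Y-negative cultures. In 500 genes (4.14%) the 5 Y-negative values lay all above (273 genes, 2.26%) or all below (227 genes, 1.88%) the 5 Y-positive ones. Of these non-overlapping genes, 78 were at least 2-fold higher and 22 at least 2-fold lower. The median log2 fold change over all tested genes was 0.016. The number called depended on the tool: DESeq2 called 460 genes and limma-voom 11, and without BN9 edgeR called 63. The genes below that were not called by edgeR are given by their values.

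**Figure D1:**
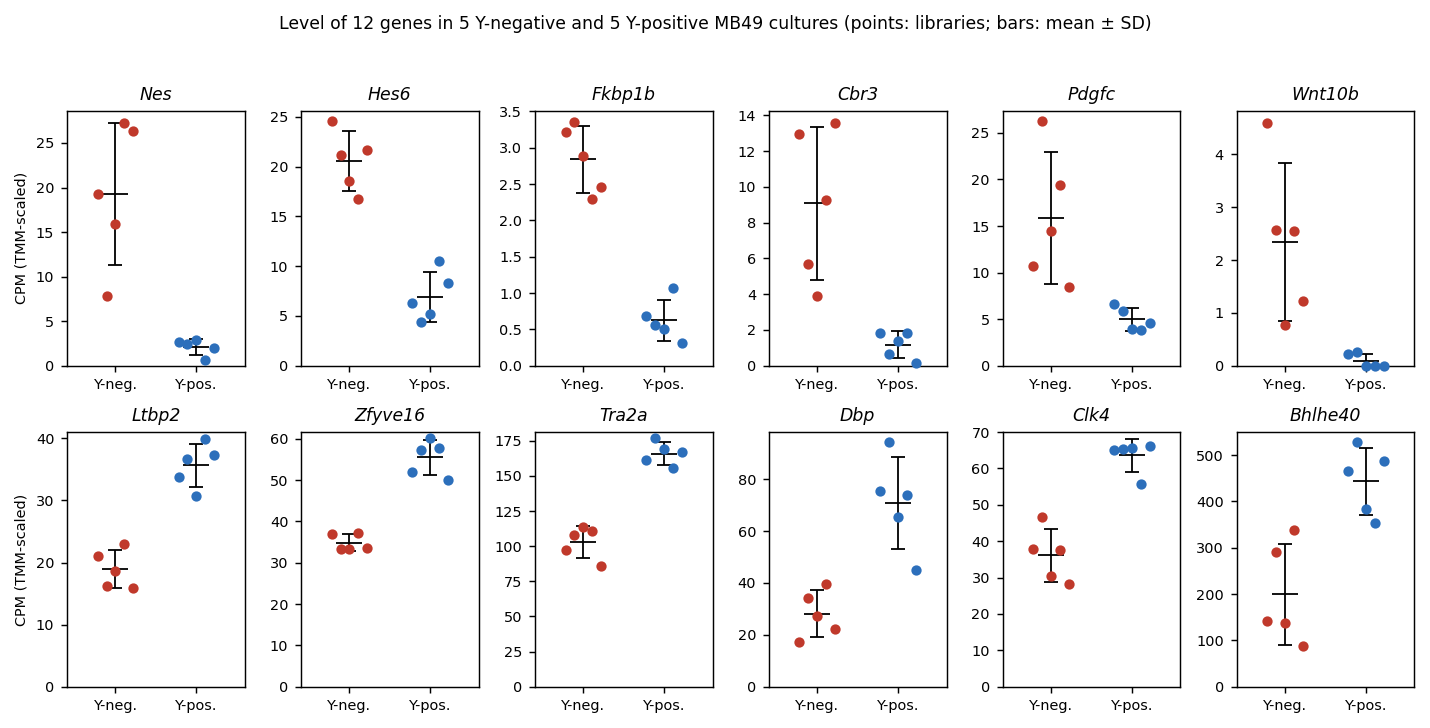
Level in CPM (linear axes from 0) of 12 genes in each of the 5 Y-negative (red) and 5 Y-positive (blue) cultures; points are libraries, and bars are the mean and SD. The genes were picked from these same data for their culture differences. In each panel the 2 groups do not overlap, and the spread is wide within the Y-negative cultures for Nes (7.88 to 27.2 CPM) and narrow for Zfyve16.

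Several genes higher in the Y-negative cultures encode secreted or surface signals. Wnt10b, a WNT ligand, had 232 reads over the 5 Y-negative cultures and 9 over the 5 Y-positive ones. It stood at 4.59 CPM in BN2, 2.56 in BN3, 0.761 in BN6, 2.56 in BN9 and 1.23 in BN10, against at most 0.253 CPM with the Y chromosome, where MB17, MB19 and MB34 had no read. Its log2 fold change was 4.40 ± 0.80 (SE) and its adjusted p in edgeR 0.0672, so it was not called. Pdgfc, a platelet-derived growth factor, was at 10.7 CPM in BN2, 26.2 in BN3, 14.5 in BN6, 19.4 in BN9 and 8.499 in BN10 against 3.83 to 6.59 CPM (log2 fold change 1.67 ± 0.30 (SE), adjusted p = 0.0672). BN3 and BN9 were the highest for Pdgfc, and BN10 the lowest of its group. Adamts4, a protease that cleaves aggrecan, averaged 25.4 ± 8.28 against 10.5 ± 1.65 CPM (log2 fold change 1.28 ± 0.22 (SE), adjusted p = 0.0672). Lrp12, a member of the LDL receptor family, was 1.19 higher, the C-type lectin receptor gene Cd302 0.88 higher and Rtn4rl1, a relative of the Nogo receptor, 1.53 higher on the log2 scale. None of the 3 passed the test.

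Other genes of this direction act inside the cell. Fkbp1b encodes a binding protein of FK506 that stabilizes calcium release channels. It was read at 3.21 CPM in BN2, 3.36 in BN3, 2.89 in BN6, 2.297 in BN9 and 2.46 in BN10 against 0.313 to 1.06 CPM, a narrow spread for so low a level (log2 fold change 2.18 ± 0.35 (SE), adjusted p = 0.0596). Cbr3, a carbonyl reductase, ranged over 3.91 to 13.6 CPM without and 0.125 to 1.85 CPM with the Y chromosome (log2 fold change 2.95 ± 0.54 (SE), adjusted p = 0.0672). Esco2, the acetyltransferase that establishes sister chromatid cohesion in S phase, averaged 10.5 ± 4.78 against 2.87 ± 0.688 CPM, with BN3 the lowest Y-negative culture at 4.01 CPM and MB34 the highest Y-positive one at 3.94 CPM. Its adjusted p was 0.0672 in edgeR.

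Abca12, a lipid transporter known from the skin barrier, had 178 reads against 15 (log2 fold change 3.34 ± 0.60 (SE), adjusted p = 0.0672). Noa1, a mitochondrial GTPase, was 1.14 higher. Deptor, an inhibitor of mTOR, was 1.66 higher, and Manba, the lysosomal beta-mannosidase, 1.61 higher. Mboat1, an acyltransferase of phospholipids, was 1.57 higher, Cmbl, a hydrolase, 1.79 higher and Camk2b, a subunit of a calcium-dependent kinase, 1.37 higher. Eva1b, of which the role is less clear, was 1.39 higher. For Eva1b, Mboat1 and Manba the Y-negative mean leaned on BN10: Eva1b was at 30.04 CPM there and at 9.55 to 10.9 CPM in the other 4. Without BN10 its log2 fold change was 0.92. Fkbp1b, Cd302, Abca12 and Wnt10b were called by limma-voom, and every gene named in these 3 paragraphs was called by DESeq2.

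Genes lower in the Y-negative cultures included ones of the matrix, of endosomes and of immune signalling. Ltbp2 encodes a binding protein of the elastic fibre matrix, related to those that store latent TGF-beta. It was at 21.01 CPM in BN2, 16.3 in BN3, 18.7 in BN6, 23.02 in BN9 and 15.9 in BN10 without the Y chromosome. With it, the level was 33.8 CPM in MB8, 36.6 in MB11, 30.7 in MB17, 39.8 in MB19 and 37.4 in MB34, above every Y-negative value (log2 fold change -0.91 ± 0.15 (SE), adjusted p = 0.0596). Zfyve16, an endosomal adaptor of SMAD proteins, was at 33.2 to 37.2 against 50.1 to 60.3 CPM (log2 fold change -0.67 ± 0.11 (SE), adjusted p = 0.0596). Both missed the threshold in edgeR, and both passed in limma-voom.

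Immune and NF-kappaB genes were among this group. Cd40, the costimulatory receptor of the TNF receptor family, averaged 56.4 ± 15.2 against 104 ± 10.8 CPM (log2 fold change -0.88 ± 0.17 (SE), adjusted p = 0.0779). Alpk1, a kinase that senses a bacterial sugar, and Tifa, the adaptor downstream of it, were both lower, by log2 fold changes of -1.05 and -0.93. The interferon-inducible GTPase gene Gbp9 was -1.52 on the log2 scale, at 5.598 ± 3.696 against 16.1 ± 4.27 CPM. All 4 had groups that did not overlap, which is not a separate result, since genes were named for such a change or a small p. None was called by edgeR.

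Others serve membranes, traffic and metabolism. Ampd3, an AMP deaminase, stood at 158 ± 22.3 against 263 ± 34.3 CPM (log2 fold change -0.74 ± 0.14 (SE), adjusted p = 0.0687). Creb3l2, a transcription factor cleaved on its way from the endoplasmic reticulum, differed by -1.003, the Golgi gene Golph3l by -0.96, Arfip2, which binds ARF and RAC proteins, by -0.64 and the lysosomal chloride exchanger gene Clcn7 by -0.93. Mpp5, a polarity scaffold, differed by -0.62, the ubiquitin ligase gene Znrf1 by -0.66, and Tctn1, a gene of the ciliary transition zone, by -0.81. Flrt2, an adhesion and guidance protein, differed by -0.96, and Pkia, an inhibitor of protein kinase A, by -0.89. In each of these the 5 Y-negative values lay below the 5 Y-positive ones. Such genes were named for a large change without overlap or a small p, so their lack of overlap is not a separate result.

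Nes was the only gene of the neural list that passed the test. Of 30 neural progenitor and neuronal genes in that list, 8 had enough reads to be tested, and 7 of the 8 were higher in the Y-negative cultures (median 0.34). Syngr1, a synaptic vesicle protein, was at 4.23 CPM in BN2, 3.22 in BN3, 9.33 in BN6, 7.099 in BN9 and 7.64 in BN10 against 1.06 to 2.41 CPM (log2 fold change 1.81 ± 0.34 (SE), adjusted p = 0.0687). The remaining members overlapped between groups: Vim, encoding vimentin (0.62), Nrp1 (0.35), Tubb3, a neuronal tubulin (0.33), Ncam1 (0.10), Msi2 (0.08) and the transcription factor gene Sox9 (-0.79). The Vim difference came with 1 library: BN10 was at 6640.5 CPM, the other 9 at 1389 to 2368 CPM. Vim and Tubb3 turned to -0.02 and -0.21 without BN10. Without BN6 and BN10 the list median was -0.07.

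Hes6 was also the only Notch pathway gene called. Notch receptors are cut on ligand binding, and the released part joins RBPJ to activate genes of the Hes and Hey families. Of 32 tested members, 12 were higher and 20 lower, with a median of -0.11. The ligand gene Jag1 was 0.45 ± 0.23 (SE), the receptor genes Notch1 and Notch2 0.06 and -0.70, and the fringe gene Mfng 0.50. Rbpj itself was -0.43 ± 0.23 (SE), and Hes1, the usual target, -0.32 ± 0.30 (SE). In all 31 members other than Hes6 the groups overlapped, so 3.12% were without overlap, against 4.14% of all tested genes.

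**Figure D2:**
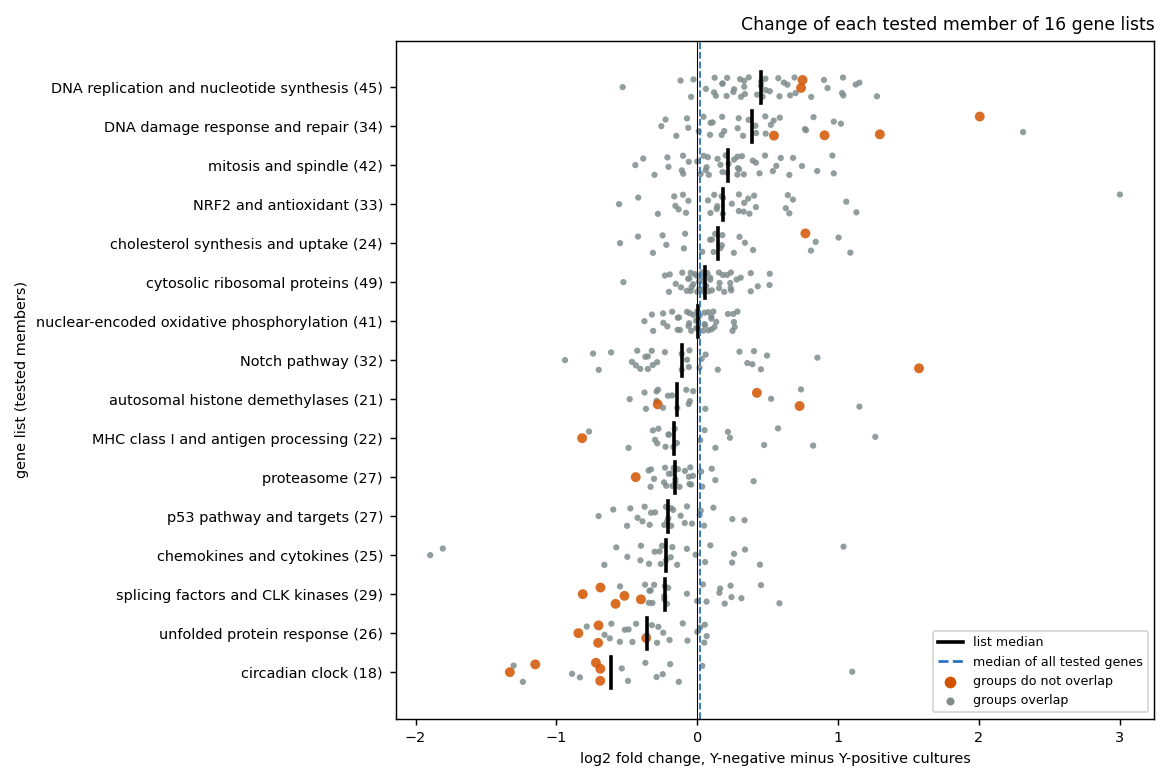
Log2 fold change (Y-negative minus Y-positive cultures) of each tested member of 16 gene lists, with the number tested in brackets; black bars are list medians, the dashed line is the median of all tested genes, and orange points are genes whose groups do not overlap. Medians run from 0.45 for DNA replication to -0.61 for the circadian clock.

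Genes of DNA replication and repair were mostly higher in the Y-negative cultures. Of 45 tested genes of DNA replication and nucleotide synthesis, 41 were higher, with a median of 0.45, against 51.8% higher and a median of 0.016 over all tested genes. None was called by edgeR. 20 of the 45 were higher at an unadjusted p under 0.05 and 1 was lower, together 46.7% against 16.9% of all tested genes. In 2 (4.44%) the groups did not overlap, a share near the 4.14% of all tested genes. Mcm7, a subunit of the replicative helicase, was at 121 CPM in BN2, 96.5 in BN3, 129.7 in BN6, 89.9 in BN9 and 121 in BN10 against 55.1 to 78.4 CPM (log2 fold change 0.74 ± 0.15 (SE), adjusted p = 0.091). Mcm6, another subunit, was 1.03 higher, Timeless, a protector of the replication fork, 1.15 higher and Cdc45, the helicase cofactor, 0.66 higher.

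The list level, the mean over members of log2 CPM minus the gene's mean over the 10 cultures, was not even within groups. It was 0.62 in BN2, 0.36 in BN10, 0.18 in BN6, 0.15 in BN3 and -0.19 in BN9. Among Y-positive cultures it was 0.20 in MB34 and -0.21 to -0.47 in the other 4. BN9 and MB34 thus overlapped with the opposite group. On leaving out each culture in turn the median stayed between 0.29 and 0.55.

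Repair genes were mostly higher too, with 29 of 34 higher and a median of 0.39. 14 were higher at an unadjusted p under 0.05 (41.2%, against 16.9% of all tested genes), and none was lower at it. In 4 (11.8%, against 4.14% of all) the groups did not overlap: Neil3, a glycosylase of oxidized bases (2.01 ± 0.46 (SE)), Exo1, an exonuclease of mismatch repair and end resection (1.30 ± 0.32 (SE)), Bard1, the partner of BRCA1 (0.90 ± 0.23 (SE)), and Blm, the Bloom helicase (0.54 ± 0.14 (SE)). Exo1 was at 6.94 to 16.3 against 2.24 to 6.69 CPM. Rad54l, of homologous recombination, had the largest difference of the list at 2.31, with BN10 at 11.7 CPM and the other Y-negative cultures at 0.606 to 3.16 CPM. None of them was called by edgeR.

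Mitotic genes were less uniform: 32 of 42 were higher, with a median of 0.22 that was 0.07 without BN10. Ccnb2, a mitotic cyclin, was 0.97 higher and Birc5, encoding survivin, 0.96 higher, both with groups that overlapped. Of 26 genes for G1 cyclins, E2F factors and CDK inhibitors, 15 were higher, with a median of 0.04. At an unadjusted p under 0.05 the share was 15.4%, near the 16.9% of all tested genes. In 2 members (7.69%, against 4.14% of all) the groups did not overlap: Cdkn1b, encoding the CDK inhibitor p27 (-0.50 ± 0.15 (SE)), and E2f4, a mostly repressive E2F factor (-0.42 ± 0.14 (SE)).

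E2F factors bind TTTGGCGC and TTTCGCGC, and activate many S phase genes. These 8 letters were searched on both strands in the 250 bases before each transcription start listed by RefSeq (GRCm38.p6). For the replication list, 36 of 45 genes had a start region in the table, and the letters were found in 4 of 42 such regions (9.5%), belonging to Mcm5, Mcm6, Orc1 and Rfc3. The share over all 32851 listed start regions was 0.65%, and 1.27% over those of tested genes. In 27 start regions of the repair list there was no match. The Mcm6 region is shown since it holds the motif in a member that was higher, with the motif in capitals, 5′ to 3′ (chr1:128359731-128359830, minus strand):

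Mcm6: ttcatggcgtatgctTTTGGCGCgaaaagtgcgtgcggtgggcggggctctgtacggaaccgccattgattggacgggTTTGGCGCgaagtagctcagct

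Most genes of the circadian clock were lower in the Y-negative cultures. In the clock, CLOCK and BMAL1 (the product of Arntl) switch on the Per, Cry, Nr1d, Bhlhe40, Dbp and Tef genes through E-boxes, and the PER, CRY and REV-ERB proteins made from them feed back on CLOCK and BMAL1. Of 18 tested members, 16 were lower and 2 higher, with a median of -0.61. None was called by edgeR. At an unadjusted p under 0.05, 12 were lower and 1 was higher (72.2%, against 16.9% of all genes). In 5 of 18 (27.8%, against 4.14% of all genes) the groups did not overlap. This list level was 0.08 in BN9, -0.06 in BN3, -0.38 in BN2, -0.39 in BN6 and -0.79 in BN10, against 0.18 to 0.40 in the Y-positive cultures. Without BN10 the median was -0.50, and without both BN6 and BN10 -0.47.

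Dbp, an output gene encoding a PAR bZIP factor, was at 17.3 CPM in BN2, 34.3 in BN3, 27.2 in BN6, 39.7 in BN9 and 22.2 in BN10 without the Y chromosome. It was at 75.3 CPM in MB8, 94.3 in MB11, 65.4 in MB17, 73.97 in MB19 and 45.1 in MB34 with it (log2 fold change -1.33 ± 0.24 (SE), adjusted p = 0.0672). MB34 came nearest to the Y-negative range. Tef, a relative of Dbp, was at 112 to 294 against 326 to 377 CPM (-0.72 ± 0.21 (SE)).

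Of the repressors, Per2 was at 19.03 to 42.1 against 50.8 to 54.6 CPM (-0.69 ± 0.18 (SE)), and did not overlap. Per1 was -1.30 ± 0.36 (SE), where BN9 at 260.4 CPM overlapped with MB34 at 242 and MB19 at 245 CPM. Nr1d2, encoding REV-ERB beta, was -0.69 ± 0.18 (SE), and Bhlhe40, encoding the repressor DEC1, -1.15 ± 0.32 (SE), both with no overlap. Nr1d1 (-1.24 ± 0.44 (SE)), Bhlhe41 (-0.83 ± 0.24 (SE)), Per3 (-0.49 ± 0.21 (SE)) and Cry2 (-0.37 ± 0.12 (SE)) were lower with overlap.

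The activators differed little: Arntl was -0.13 ± 0.18 (SE) and Clock -0.29 ± 0.15 (SE). The time of day at harvest is not given for any culture, so harvest time and genotype cannot be told apart.

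The E-box CACGTG was searched in the same way. It was found in 6 of 22 start regions of the clock list (27.3%), which belong to Bhlhe41, Ciart, Cry1, Per1 and Tef, against 6.02% of all start regions and 8.26% of those of tested genes. Of the 18 tested genes, 14 had a start region in the table. Among the clock genes whose groups did not overlap, Tef is one of those with the motif, while Dbp, Per2, Nr1d2 and Bhlhe40 are not. The 3 regions below are shown since they belong to members that were lower and hold the motif, in capitals, 5′ to 3′. Ciart (chr3:95882256-95882355, minus strand) holds 3 copies, Per1 (chr11:69098736-69098835, plus strand) and Tef (chr15:81802499-81802598, plus strand) 1 each; all are GRCm38.p6.

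Ciart: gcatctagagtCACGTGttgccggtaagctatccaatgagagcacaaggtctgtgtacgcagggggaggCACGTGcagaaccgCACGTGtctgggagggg
Per1: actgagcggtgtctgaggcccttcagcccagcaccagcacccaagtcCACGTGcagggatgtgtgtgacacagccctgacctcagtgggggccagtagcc
Tef: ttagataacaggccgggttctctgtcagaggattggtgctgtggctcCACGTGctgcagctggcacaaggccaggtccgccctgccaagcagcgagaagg

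**Figure D3:**
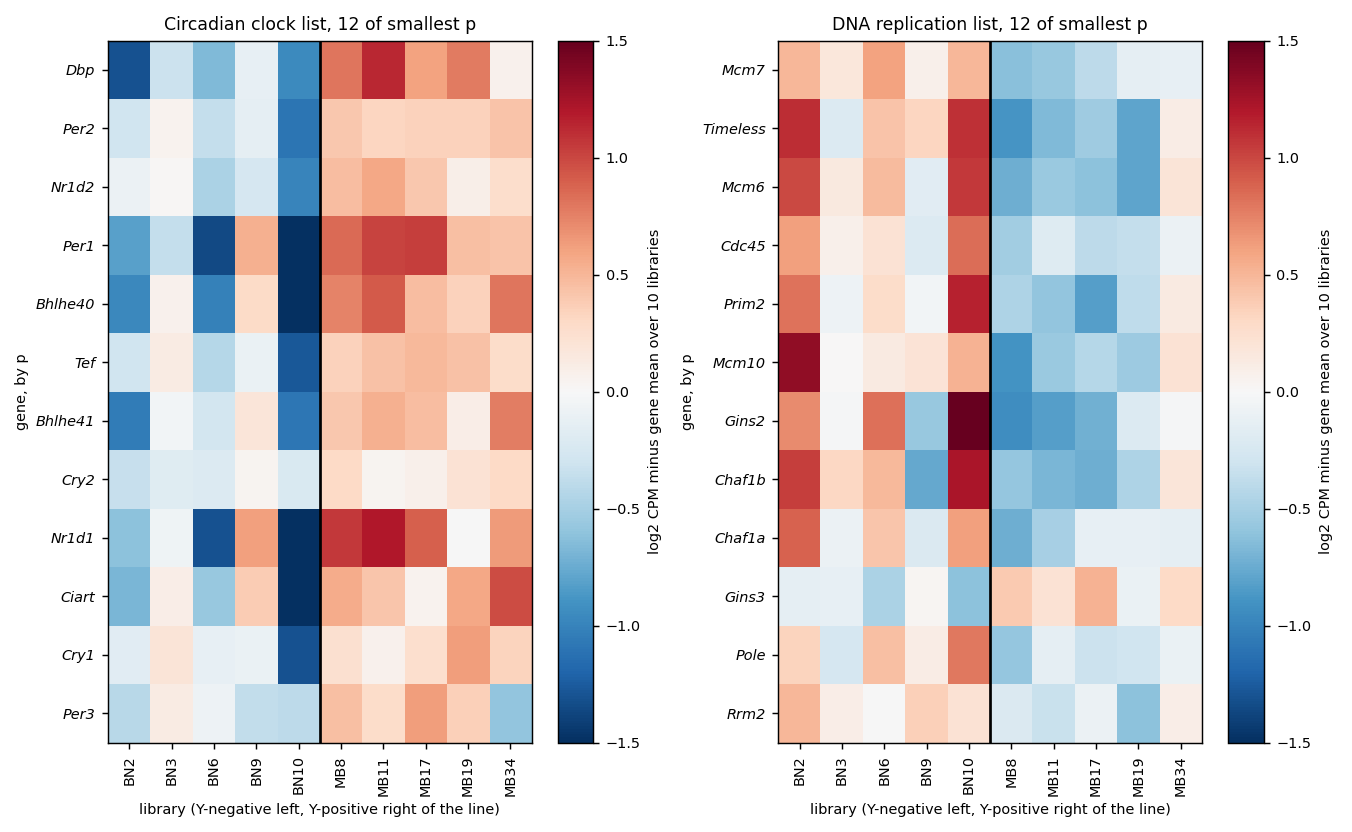
Log2 CPM minus the gene's mean over the 10 cultures for the 12 clock genes (left) and the 12 replication genes (right) of smallest p, with genes in rows and libraries in columns; colours stop at 1.5 in either direction. BN10 is the lowest clock column and BN9 the Y-negative column nearest to the Y-positive ones; in the replication panel BN2 and BN10 are high and BN9 and MB34 lie between the groups.

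Of the 42 lists, splicing factors were the other one, beside the clock, whose levels did not overlap between groups. Of 29 tested splicing factors and CLK kinases, 19 were lower and 10 higher, with a median of -0.23 that was -0.15 without BN10. The list level was -0.24 in BN10, at most 0.01 (BN6) in the other Y-negative cultures and 0.02 to 0.11 with the Y chromosome, so BN6 and MB19 nearly touched. In 5 members (17.2%, against 4.14% of all) the groups did not overlap, and all 5 were lower. Tra2a, a splicing activator, was at 97.3 CPM in BN2, 108 in BN3, 114 in BN6, 111 in BN9 and 85.7 in BN10 against 156 to 177 CPM (log2 fold change -0.69 ± 0.12 (SE), adjusted p = 0.0672). Clk4, a kinase of SR proteins, was at 37.9 CPM in BN2, 46.7 in BN3, 30.4 in BN6, 37.6 in BN9 and 28.2 in BN10 against 55.7 to 66.2 CPM (log2 fold change -0.81 ± 0.14 (SE), adjusted p = 0.0672). Rbm25 was -0.52 ± 0.11 (SE) and Srsf7 -0.40 ± 0.12 (SE), while Srsf5 was 0.58 ± 0.18 (SE) higher. Tra2a was called by limma-voom and not by edgeR.

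Genes of the unfolded protein response, which raises the folding and degrading capacity of the endoplasmic reticulum, were mostly lower. 22 of 26 were lower, with a median of -0.36. At an unadjusted p under 0.05, 7 were lower and 0 higher (26.9%, against 16.9% of all tested genes). In 4 (15.4%, against 4.14% of all) the groups did not overlap: Selenos, of the retrotranslocation complex (-0.84 ± 0.19 (SE)), Xbp1, the transcription factor activated by IRE1 (-0.70 ± 0.17 (SE)), Eif2ak3, the sensor kinase PERK (-0.70 ± 0.19 (SE)), and Derl1, a channel subunit (-0.36 ± 0.14 (SE)). Xbp1 was at 117 CPM in BN2, 170.3 in BN3, 105 in BN6, 159 in BN9 and 144 in BN10 against 198 to 290.2 CPM. The list level overlapped, since MB8 (-0.07) and MB11 (-0.10) lay within the Y-negative range. MB19 (0.54), MB17 (0.39) and MB34 (0.13) stood above that range, whose highest culture was BN3 (0.07). The ER stress element, known for its CCAAT and CCACG boxes at a fixed spacing, was found in 8 of 21 start regions of this list (38.1%), against 0.11% of all. The 8 belong to Calr, Canx, Creld2, Dnajc3, Hsp90b1, Hspa5, Pdia6 and Syvn1, and not to the 4 genes named.

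The neighbouring lists of proteostasis were mixed. Of 29 genes of the integrated stress response and amino acid supply, 22 were higher (median 0.13, and 0.04 without BN9), with the largest difference in the glycine transporter gene Slc6a9 (0.79 ± 0.21 (SE), no overlap). Of 21 heat shock and proteostasis genes, 9 were higher, with Hspa8 at 1.03. Of 27 proteasome genes, 22 were lower with a small median of -0.16, which was -0.05 without BN10. Only Psmc4 among them had groups that did not overlap (-0.44 ± 0.12 (SE)), a share of 3.7%, near the 4.14% of all tested genes.

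Target genes of p53, which halts the cycle after DNA damage, were lower in 21 of 27 cases, with a median of -0.21. None had groups without overlap. Zmat3 was -0.50 ± 0.18 (SE), Mdm2 -0.48 ± 0.21 (SE) and Cdkn1a, encoding p21, -0.42 ± 0.21 (SE). The list level was lowest in BN10 (-0.39) and BN6 (-0.36), while BN9 (0.20) lay among the Y-positive cultures. Of 29 apoptosis regulators 13 were higher, and the inhibitor of apoptosis gene Birc2 was -0.62 ± 0.19 (SE).

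Immune gene lists had medians between -0.22 and 0.15, and most of these medians lay nearer to 0 or past it without BN10. Of 22 genes of MHC class I and antigen processing, 13 were lower (median -0.17, but 0.06 without BN6 and BN10). Only Tapbpl, an editor of peptide loading, had groups without overlap (-0.82 ± 0.19 (SE), adjusted p = 0.101 in edgeR). This share of 4.55% is near the 4.14% of all tested genes. The class I gene H2-Q4 was -0.77 ± 0.28 (SE), and its reads may be shared with near-identical H2-Q copies. Of 31 interferon response genes, 19 were higher (median 0.15). Without BN10 this turned to 15 of 31 and a median of -0.04. The GTPase gene Gbp2 was -0.98 ± 0.34 (SE).

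Of 23 genes of innate DNA and RNA sensing, 16 were lower (median -0.17), Traf6 and Nfkb1 by -0.42 and -0.50. Of 19 checkpoint ligands and costimulators, 12 were lower (median -0.22, and -0.14 without BN10). Pvr, the ligand of DNAM-1 and TIGIT, was -0.73 ± 0.21 (SE), and Cd47, the signal that restrains phagocytes, -0.53 ± 0.22 (SE). Of 25 chemokines and cytokines, 18 were lower (median -0.22). That median was -0.45 without BN9 and -0.09 without BN10. The monocyte chemokine gene Ccl7 was -1.90 ± 0.46 (SE). Csf2, encoding GM-CSF, ranged from 0.1604 CPM in BN10 to 212 CPM in MB34, and MB19 at 5.54 CPM lay below 4 Y-negative cultures. None of these genes was called by edgeR.

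Among signalling lists, WNT genes had 14 of 22 higher and a median of 0.04, so that Wnt10b stood apart from most of its list. The receptor genes Fzd1 and Fzd6 were 1.30 ± 0.30 (SE) and 0.50 ± 0.14 (SE), the latter with no overlap, and Apc, of the beta-catenin destruction complex, was -0.39 ± 0.12 (SE), also with no overlap. In the TGF-beta and BMP list 17 of 28 were lower (median -0.10). Beside Ltbp2, Skil, a corepressor of SMADs, had no overlap (-0.64 ± 0.23 (SE)), and Smad3 was -0.51 ± 0.15 (SE). Of 25 EGF receptor family and growth factor receptor genes 9 were higher, Fgfr3 by 1.05. Immediate early genes went both ways: Jun was -0.80 ± 0.22 (SE), Egr1 1.12 ± 0.38 (SE) and the phosphatase gene Dusp2 1.43 ± 0.39 (SE).

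Adhesion and matrix lists were near even. Of 28 integrin, laminin and adhesion genes 12 were higher (median -0.06). Mcam was 1.76 ± 0.48 (SE), the integrin gene Itgb5 0.38 ± 0.12 (SE) with no overlap, and the tetraspanin gene Cd151 -0.46 ± 0.18 (SE) with no overlap. Of 25 matrix proteases and inhibitors 12 were higher, and of 23 mesenchymal and matrix genes 15. YAP and SRF targets had 9 of 21 higher, homeobox cluster genes 6 of 13 and imprinted genes 3 of 8.

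The bladder epithelial identity of both groups was partial. In the authors' FPKM values, which are per length, Krt8 stood at 179.7 to 546 in Y-negative and 198 to 301 in Y-positive cultures and Krt18 at 239 to 632 and 346 to 503. The keratin genes Krt5 and Krt7, and Epcam, Cdh1 and Upk1a, were all below 1 FPKM in every culture. Upk1b, Upk2, Upk3a, Krt20 and Pparg were not among the genes listed for the cultures, so no level can be given. Gata3 and Foxa1 were present (15.3 to 39.5 and 5.1 to 7.26 FPKM over the 10 cultures). Of 18 tested urothelial and epithelial genes 7 were higher, with a median of -0.06. Grhl2, an epithelial transcription factor, was at 0.765 to 4.28 CPM without the Y chromosome and at 28.3 CPM in MB8, 30.4 in MB11, 13.8 in MB17, 1.06 in MB19 and 22.4 in MB34 with it. MB19 alone kept the groups from separating (log2 fold change -3.27 ± 0.69 (SE), adjusted p = 0.1).

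Markers of other cell types were mostly low or not listed, apart from Cd68, Pdgfra and Tubb3. The 2 listed of 4 endothelial markers summed to 0.059 to 0.235 FPKM in Y-negative and 0.234 to 0.335 FPKM in Y-positive cultures. The 4 listed of 9 leukocyte markers summed to 33.3 to 188 and 57.3 to 123 FPKM, nearly all of it Cd68, while Ptprc, which marks all leukocytes, was at most 0.411 FPKM. The 4 listed of 7 fibroblast markers summed to 6.77 to 18.6 and 6.34 to 14.04 FPKM, and Pdgfra among them stood at 4.22 to 16.4 and 2.48 to 8.295 FPKM. Tubb3, the 1 listed neuronal marker of 4, stood at 16.4 to 78.3 FPKM in Y-negative and 24.0 to 34.3 FPKM in Y-positive cultures. None of the 3 muscle markers looked for was listed. Hemoglobin reads did differ between groups: Hba-a1 had 3 reads over the Y-negative and 199 over the Y-positive cultures, and Hbb-bs 0 and 117. Of the Y-positive reads, MB17 held 132 and 70, MB34 36 and 21, MB11 14 and 22, MB19 17 and 4, and MB8 none. The part of these reads in any result was not tested.

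Autosomal histone demethylase genes, relatives of the lost Kdm5d and Uty, went both ways. Of 21 tested autosomal histone demethylase genes, 6 were higher and 15 lower, with a median of -0.14, and none was called. At an unadjusted p under 0.05, 5 were higher and 4 lower (42.9%, against 16.9% of all tested genes). In 3 (14.3%, against 4.14% of all) the groups did not overlap, 2 higher and 1 lower, and the list levels overlapped (-0.056 to 0.047 against -0.043 to 0.075). Riox2, a ribosomal oxygenase, was at 22.2 CPM in BN2, 17.8 in BN3, 22.1 in BN6, 18.9 in BN9 and 22.02 in BN10 against 9.796 to 15.6 CPM (0.73 ± 0.17 (SE)), and Riox1 was 0.42 ± 0.14 (SE); neither overlapped. Kdm8 was 0.74 ± 0.23 (SE) and Hr 1.15 ± 0.39 (SE). Kdm5a, the autosomal member of the KDM5 family of H3K4 demethylases along with Kdm5b, was at 126 CPM in BN2, 129 in BN3, 111 in BN6, 131 in BN9 and 117 in BN10 against 141 to 160.3 CPM, a difference of -0.28 ± 0.11 (SE) with no overlap. Kdm6b, a relative of Uty that removes H3K27 methylation, was -0.29 ± 0.18 (SE), and Jmjd1c -0.48 ± 0.22 (SE).

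Of 35 histone methyltransferase and polycomb genes 17 were higher (median -0.01), with Setd1b at -0.47 ± 0.15 (SE). Of 12 DNA methylation and TET genes 5 were higher, and of 18 replication-dependent histone genes 11. The H3K4 and H3K27 marks themselves were not measured.

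Metabolic lists lay near 0. Of 41 nuclear-encoded genes of oxidative phosphorylation, 21 were higher with a median of 0.003, and none had an unadjusted p under 0.05. Of 49 ribosomal protein genes 32 were higher (median 0.05), and of 34 glycolysis and hypoxia genes 18 (median 0.02). Of 24 cholesterol genes 17 were higher (median 0.15), Acat2, with no overlap, by 0.77. Of 24 genes of fatty acid synthesis and oxidation 16 were higher, and of 30 of autophagy and the lysosome 13. Pnpla2, the lipase that starts triglyceride breakdown, was lower at 82.2 ± 11.8 against 138 ± 22.6 CPM (log2 fold change -0.75 ± 0.15 (SE), adjusted p = 0.0813).

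NRF2 target genes, which answer oxidative stress, were higher in 24 of 33 cases (median 0.18). Nqo1, a quinone reductase, was at 4.23 CPM in BN2, 6.11 in BN3, 1.98 in BN6, 30.8 in BN9 and 48.9 in BN10 against 0.781 to 3.504 CPM, so that only BN9 and BN10 were clearly high (3.001 ± 0.79 (SE)). The list level was 0.66 in BN10 and -0.23 to 0.18 in the other 9, and Gclc was 1.06 higher. Without BN6 and BN10 the median was -0.03. Of 15 usual reference genes, 8 were higher (median 0.01), but Gusb was 0.80 ± 0.15 (SE) with no overlap.

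Some genes set a single culture apart from the other 9. For each culture, the 3 genes farthest from the nearest other culture are given, and 29 of these 30 were low in that culture. BN3 had no read of Nectin3, an adhesion protein (0 CPM against 7.46 to 11.8 CPM in the other 9), nor of Mb21d2 (0 CPM against 4.39 to 8.94), where 3 reads would be 0.1398 CPM, and little Apc2 (0.792 CPM against 6.13 to 17.04). Nectin3 and Mb21d2 both lie on chromosome 16. BN9 lacked most of Pax5, the B cell factor gene that MB49 cultures otherwise express (0.261 CPM against 15.9 to 25.5 CPM), with low Col6a2 (0.313 CPM against 2.499 to 38.1) and Dtd1 (4.65 CPM against 12.7 to 26.01). BN10 was low in the secreted factor genes Csf2 (0.1604 CPM against 5.54 to 212 CPM) and Ccl20 (0.214 CPM against 2.23 to 40.8) and in Gadd45b, a stress-induced gene (21.1 CPM against 138 to 962).

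BN2 was low in the RNA-binding protein gene Celf2 (1.38 CPM against 8.93 to 22.6 CPM), Slurp1 (0.255 CPM against 2.097 to 22.5) and Adgrd1 (0.612 CPM against 3.902 to 14.5). BN6 was low in Cpt1c (0.0507 CPM against 0.714 to 24.3 CPM), Cnp (0.913 CPM against 3.06 to 19.8) and the inflammasome gene Nlrp3 (1.22 CPM against 3.88 to 21.4). Among Y-positive cultures, MB19 was low in the DNA sensor gene Aim2 (1.85 CPM against 68.2 to 149 CPM), in Myo5c (1.99 CPM against 10.6 to 21.7) and in H2-Q7 (1.35 CPM against 6.24 to 63.9), of which near-identical copies may share the reads. MB34 was low in Artn, a neurotrophic factor of the GDNF family (0.188 CPM against 5.03 to 12.2 CPM), Cdh22 (0.188 CPM against 3.03 to 25.8) and Snai1, a factor of epithelial to mesenchymal transition (0.438 CPM against 2.03 to 13.5).

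MB17 was low in the ion channel gene Trpv2 (0.637 CPM against 8.72 to 19.5 CPM), the pluripotency-associated gene Dppa4 (4.08 CPM against 25.7 to 85.2) and Adgra2 (1.72 CPM against 8.75 to 25.3). MB8 and MB11, the 2 closest cultures, had the narrowest gaps to the next culture, of 0.66 to 1.01 on the log2 scale, against 1.43 to 6.10 in the other 8. MB8 was low in Orc1 (2.18 CPM against 4.49 to 8.72 CPM), Cenpm (2.12 CPM against 4.25 to 28.97) and Tpm2 (2.24 CPM against 3.59 to 34.02). In MB11, Smco4 (3.54 CPM against 6.88 to 10.7 CPM) and Hspa1b (1.67 CPM against 2.98 to 17.04) were low, and Cntnap4, the only one of the 30 that was high, was at 34.4 CPM against 9.16 to 21.6 CPM.

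Whole chromosomes also differed between cultures. The median over the genes of an autosome of log2 CPM minus the gene's mean over the 10 cultures was taken for each culture, with 288 to 983 genes of at least 1 CPM per autosome. MB19 stood at 0.43 on chromosome 3, where 87.0% of 552 genes were above their mean, against -0.194 to 0.039 in the other 9. The shift ran along all 27 consecutive windows of about 20 genes, from 0.169 to 0.605. BN2 was low on chromosome 7 (-0.281, with 20.7% of 882 genes above their mean), chromosome 6 (-0.224) and chromosome 5 (-0.13). BN10 was low on chromosomes 17 (-0.239), 5 (-0.209), 3 (-0.194) and 6 (-0.164), and high on 11 (0.172), 7 (0.16), 14 (0.146) and 10 (0.122). On chromosome 19, MB8 (-0.135) and MB11 (-0.173) were low in all 20 windows while the other Y-positive cultures were at 0.044 to 0.068. DNA copy number was not measured.

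Between the groups, none of the 19 autosomes passed an exact permutation test of the 5 against 5 medians (two-sided, Benjamini-Hochberg over 19). Chromosome 15 was closest, 0.07 higher in the Y-negative cultures, with all 5 above all 5 (exact permutation p = 0.00794, the smallest this design allows, adjusted p = 0.151). Chromosomes 2 and 4 were 0.06 higher each (adjusted p = 0.151, exact permutation test). When a mean trimmed by 10% at each end replaced the median, chromosomes 2, 4, 10 and 15 passed (adjusted p = 0.0377 each, exact permutation test), with shifts of 0.06 to 0.08. All 4 were tied at the smallest p. Nes lies on chromosome 3, the one that was high in MB19, and MB19 had the lowest Nes level of all 10 cultures.

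**Figure D4:**
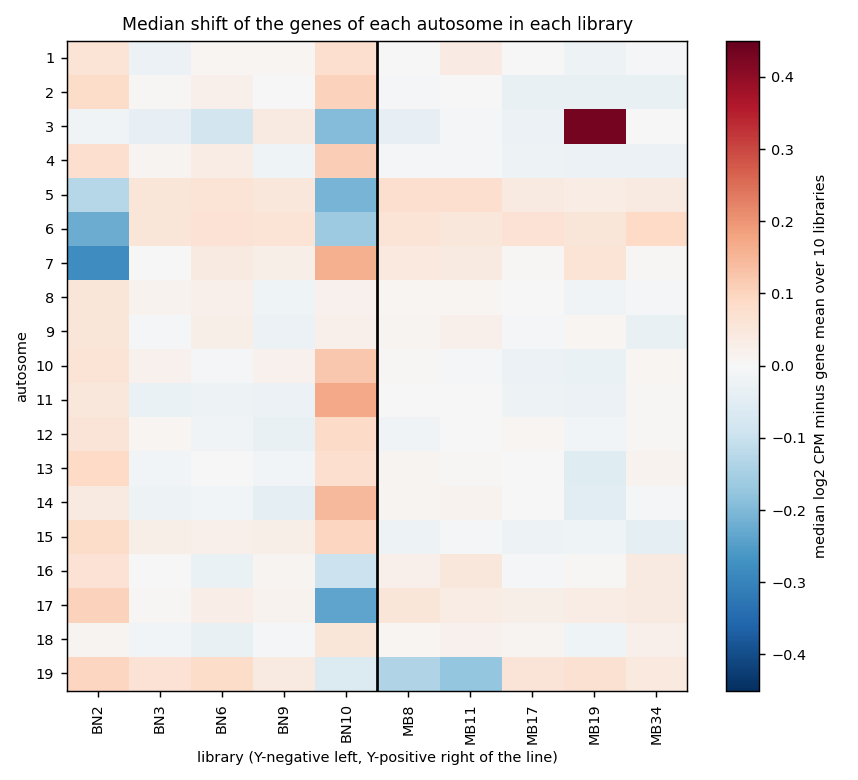
Median shift of the genes of each autosome (rows) in each library (columns), in log2 CPM minus the gene's mean over the 10 cultures. Chromosome 3 in MB19 (0.43) and chromosome 7 in BN2 (-0.281) stand out, while the group difference of chromosome 3 was -0.13 and that of chromosome 15 was 0.07.

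Shorter runs of neighbouring genes stood out in some Y-negative cultures, and were picked after their values were seen. Over chr2:119797733-122369162 (mm10), which holds 40 expressed genes from Tyro3 to Shf, BN2 had a median of 0.584 with 36 of 40 genes above their mean, and BN9 0.425 with 38 of 40. The other 8 cultures lay at -0.163 to -0.01. B2m, the light chain of MHC class I, lies in this run: it was at 1121 CPM in BN2, 399.5 in BN3, 465 in BN6, 904 in BN9 and 696 in BN10, against 675 to 878 CPM in the Y-positive cultures. BN2 and BN9 were thus the 2 highest for B2m and BN3 and BN6 the 2 lowest of all 10. Tyro3, Trp53bp1 and Pdia3 are other genes of the run.

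In BN3 it was the adjoining stretch, chr2:119017779-119787537, that was high (median 0.509, 20 of 20 genes above their mean). BN10 was next at 0.304, and the rest lay at -0.231 to 0.101. The border between the stretches is a window edge. BN3 was also above the mean at Tyro3 (0.614), Mga (0.723) and Mapkbp1 (0.389) past it. BN2 was so at Ndufaf1 (0.864), Rtf1 (0.565) and Rpap1 (0.745) before it. BN3 was also low over chr17:85984665-94877497, with a median of -0.741 and 19 of 20 genes below their mean, against -0.147 to 0.273 elsewhere. Near the end of chromosome 2 (chr2:173737511-178034022), BN2 (0.466), BN6 (0.33) and BN3 (0.248) were high and the other 7 were at -0.185 to -0.046. Most of this run, from Gm14399 to Zfp971, is a cluster of predicted and Zfp genes, where reads may also be shared between similar copies. Over the genes before it, Vapb to Prelid3b, BN3 was at -0.18 to 0.163, BN2 at 0.05 to 0.393 and BN6 at -0.295 to 0.655. The low values of BN10 on chromosome 17 sat over chr17:3103175-33822918 (median -0.393, 195 of 273 genes below their mean). Over 20 neighbouring genes on chromosome 13 (chr13:67121660-67811200), 19 of them zinc finger genes, BN10 (-0.58) and BN6 (-0.426) were low and MB34 (0.477) and MB11 (0.324) high. Reads of such gene clusters may be shared between near-identical copies. By count, 34 of 556 windows in BN10, 18 in MB19 (17 of them on chromosome 3) and 13 in BN2 lay beyond 0.4 in either direction, and at most 2 in each of the other 7.

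In the tumors the culture differences mostly did not recur. Of the 500 genes whose culture groups did not overlap, 492 were tested in the tumors, and 187 of them (38.0%) had the same sign there, against 48.3% of all 11681 autosomal genes tested in both. Of these 11681 genes, 257 (2.2%) were called between Y-negative and Y-positive tumors by edgeR. Of the 492, 12 were called in the tumors, all with the opposite sign. The change differed between tumors and cultures by an interaction term over all 20 libraries for 577 of 12064 genes (4.78%). Tumors also hold cells of the host, so a level there is not that of the cancer cells alone, and fewer cells of a type and less RNA per cell cannot be told apart.

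Nes and Hes6 were near 0 in the tumors, at log2 fold changes of 0.16 and 0.02 (adjusted p = 0.749 and 0.963 in edgeR). The difference from the cultures was itself past the threshold (interaction, adjusted p = 0.00254 and 0.0131 in edgeR). Both genes were picked for their culture differences, and the interaction uses the same culture values, so it is not a separate test of them. Ltbp2 went the other way: it was 0.98 higher in Y-negative tumors (adjusted p = 0.0127, interaction adjusted p = 0.000321 in edgeR). Ampd3 and Tctn1 did so as well, at 0.86 and 0.78 in the tumors.

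Of the 18 clock genes, 16 were lower in the Y-negative cultures, none of them called, and 17 had a positive change in the tumors (median 0.42), and 5 were called there by edgeR, all higher: Per1 (1.03), Per2 (1.46), Per3 (1.52), Cry2 (0.98) and Tef (0.87). Interaction terms passed for Dbp, Per1, Per2, Per3, Nr1d2, Bhlhe40, Tef and Cry2, with adjusted p from 0.00231 (Per3) to 0.0417 (Nr1d2) in edgeR. These terms come from the model over all 20 libraries, which calls far more genes than the fit of the cultures alone. For the culture comparison it called 330 autosomal genes higher and 114 lower, against 2 in the fit of the cultures. Splicing genes had 21 of 29 higher in the tumors (median 0.23) and histone demethylase genes 16 of 21 (median 0.39). Replication genes were higher in 13 of 45 (median -0.15). Genes of the unfolded protein response were mostly lower in the tumors too (8 of 26 higher), as were proteasome genes (0 of 27 higher). Of all autosomal genes tested in both, 6022 of 11681 were higher in the Y-negative tumors. Lists with a culture median near 0 were also low there: 2 of 41 oxidative phosphorylation genes and 9 of 49 ribosomal protein genes were higher.

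**Figure D5:**
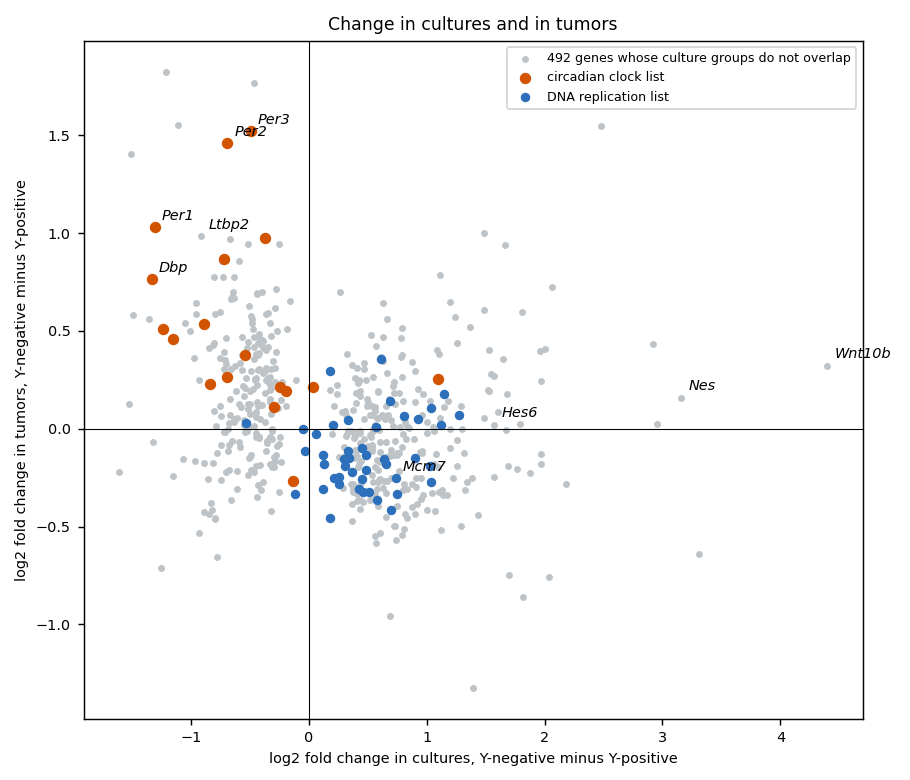
Log2 fold change (Y-negative minus Y-positive) in cultures (horizontal axis) and in tumors (vertical axis) for 492 genes whose culture groups do not overlap (grey), the circadian clock list (orange) and the DNA replication list (blue). 17 of 18 clock genes lie above 0 on the tumor axis and 16 of 18 left of 0 on the culture axis.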

How the data were processed

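RNA from 10 MB49 cultures was sequenced from total RNA with a SMARTer kit, per the labels' protocols. Tools listed in the submitters' processing notes, without order, are STAR 2.7.0d, RSEM 1.3.1, MultiQC 1.8, FastQC 0.11.5 and cutadapt 2.3, with the build mm10. The deposited tables hold whole-number counts per gene, which were tested, and FPKM values made by the authors, which were used only for levels between genes. The culture tables list no gene with fewer than 31 counts over the 10 libraries. How reads of near-identical genes were assigned is not given in the sources used here.

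Genes on all chromosomes were fitted, filtered by filterByExpr (minimum count 10, total 15), scaled by TMM and tested with edgeR 4.0.16 (R 4.3.3) quasi-likelihood, 5 cultures against 5 without pairing, with Benjamini-Hochberg adjustment over 12446 genes at a threshold of 0.05. CPM values use TMM library sizes. Of the 12446, the 12076 not on X or Y are reported. The fit was tested on simulated data with known changes. Tumors were tested the same way and with an interaction term. DESeq2 1.42.0, limma 3.58.1 voom, other scalings and filters, leaving out libraries and 1 model over 20 libraries were alternatives. Start regions came from RefSeq (GRCm38.p6).

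Named genes were all called genes, the 12 largest non-overlapping changes of at least 5 CPM and the 10 smallest p in each direction, up to 4 of smallest p per list, the neural, Notch and demethylase lists, and 3 genes per library. Predicted genes and pseudogenes were left out, and a few named genes are not reported here. Members and lists were chosen with earlier results of these data known. The floor of 3 reads given for a value of 0 covers counting error only.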

Additional observations from a re-analysis of the deposited data

Results flagged for a closer look

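In 32 of the 312 groups of 5 cultures examined for the genes named here, 1 culture lay far from the other 4 of its group: the gap to the next culture, as a share of the range of the 5, was above 0.71 before rounding. Chance gives about 1 in 20 such groups where genes are not picked for their values. Of the 312 groups, 60 belong to genes named because 1 culture lay farthest from the others, and 7 of the 32 are theirs. The other 25 belong to genes that were also named from these data. BN10 was the highest for Eva1b (0.934), Mboat1 (0.71), Manba (0.782), Vim (0.814), Rad54l (0.77), Ccnb2 (0.734), Gclc (0.767) and Slurp1 (0.772) and the lowest for Mfng (0.753) and Skil (0.732). The share of the range stands in brackets here and in the next sentences. BN2 was the lowest for Fzd1 (0.731). BN3 was the lowest for Apc2 (0.728). BN6 was the lowest for E2f4 (0.749). BN9 was the highest for Jun (0.732), Smad3 (0.723) and Ptk6 (0.817). MB8 was the lowest for Orc1 (0.729). MB11 was the lowest for Smco4 (0.724). MB17 was the highest for Tubb3 (0.819), Hspa8 (0.755), Mcam (0.753) and H2-Q7 (0.775) and the lowest for Arntl (0.723) and Trpv2 (0.741). MB19 was the highest for Deptor (0.859), Rbm25 (0.858) and Fgfr3 (0.731) and the lowest for Clk4 (0.892) and Egr1 (0.906). MB34 was the highest for Timeless (0.727) and Mcm6 (0.819) and the lowest for Snai1 (0.795). No cause of these was tested.

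For 58 of 125 genes named here (46.4%) the change between Y-negative and Y-positive samples differed between tumors and cultures by the interaction term (edgeR, adjusted p under 0.05), with a more positive change in the tumors for 29 of them. Over all genes tested the share was 4.78% (577 of 12064). Most of the named genes were chosen for their culture differences, so the 2 shares cannot be compared. The tumor change minus the culture change, in log2 units, is given in brackets. Clock genes had a more positive change in the tumors: Dbp (2.05), Bhlhe40 (1.56), Per1 (2.29), Per2 (2.1), Per3 (1.97), Nr1d2 (0.91), Tef (1.54) and Cry2 (1.3). So did splicing genes: Clk4 (1.2) and Rbm25 (0.92). So did the histone modifier genes: Jmjd1c (1.41), Kdm6b (1.25) and Setd1b (1.57). Among immune, stress and growth genes this held for Gbp9 (1.6), Alpk1 (1.55), Pvr (0.96), Eif2ak3 (0.98), Jun (1.12), Apc (1.05) and Notch2 (1.48). Among genes of matrix, traffic and metabolism it held for Creb3l2 (1.46), Flrt2 (1.5), Clcn7 (1.13), Ltbp2 (1.85), Tctn1 (1.54), Ampd3 (1.55), Zfyve16 (0.77), Znrf1 (0.92) and Mpp5 (0.77). In the other direction, Nes and its list neighbour had smaller values in the tumors than in the cultures: Nes (-3.04) and Syngr1 (-2.72). Notch and related genes did too: Hes6 (-1.6) and Mfng (-0.86). The same was seen for genes of DNA replication, repair, cohesion and mitosis: Mcm7 (-1.03), Cdc45 (-0.88), Neil3 (-1.64), Exo1 (-1.34), Rad54l (-2.29), Esco2 (-2.14), Ccnb2 (-1.24) and Birc5 (-1.46). It was also seen for demethylase genes and relatives: Riox2 (-1.26), Kdm8 (-1.19) and Riox1 (-0.83). Secreted and surface proteins with it were Wnt10b (-4.13), Pdgfc (-1.73), Adamts4 (-1.25), Lrp12 (-1.08) and Cd302 (-1.32). The remaining genes with it were Noa1 (-1.52), Eva1b (-1.68), Mboat1 (-1.86), Cmbl (-1.8), Fkbp1b (-2.51), Cbr3 (-2.97), Dusp2 (-1.92), Acat2 (-0.94) and Gusb (-1.16). Tumors also hold host cells, and their part in these differences was not tested.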

How the results depend on the processing

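The number of autosomal genes called, Y-negative against Y-positive cultures, was 2 in edgeR and 460 in DESeq2, 11 in limma-voom, 1 with genes of X and Y left out of the fit, 444 with all 20 libraries in 1 model and 5 with BN6 and BN10 both left out, a setting chosen after seeing the data. Leaving out each culture in turn gave 0 (without MB11) to 63 (without BN9) calls in edgeR. Other scalings and filters gave 2, and summing MB8 and MB11 gave 3. No autosome was called as a whole by a test that 1 autosome alone could not pass, against 4 with the trimmed mean. Of 42 gene lists, 10 had a median beyond 0.2 in either direction, and 4 (without BN10) to 15 (without BN3) did so on leaving out each culture. The median of 17 lists changed sign in at least 1 setting. With BN6 and BN10 left out, the log2 fold change of Vim turned to -0.21, of Tubb3 to -0.17 and of Krt8 to -0.24. On leaving out each culture, Vim ranged from -0.0248 to 0.78, Tubb3 from -0.21 to 0.50, Ncam1 from -0.0441 to 0.21, Notch1 from -0.0439 to 0.14 and Krt18 from -0.33 to 0.0279. Over 2768 pairs of a named gene and a setting, 2565 kept direction and side of the threshold, 183 passed it where edgeR did not (76 of these in DESeq2, 68 with all 20 libraries and 23 without BN9), 11 lost the call and 9 reversed. The cause was not tested. No paired analysis was possible because the groups compared share no replicate numbers. Genes of a few CPM rest on few reads, so their differences are the least precise.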

Other observations

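Ptk6, which encodes a non-receptor tyrosine kinase of epithelial cells, was chosen after its values were seen, as 1 of the 11 genes called by limma-voom. It was at 0.05101 CPM in BN2, 0.233 in BN3, 0.101 in BN6, 1.04 in BN9 and 0.107 in BN10 in the Y-negative cultures. In the Y-positive cultures it was at 2.92 CPM in MB8, 2.12 in MB11, 2.102 in MB17, 1.63 in MB19 and 2.38 in MB34. Its log2 fold change was -2.84 ± 0.63 (SE), with an adjusted p of 0.101 in edgeR.

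Reads of mitochondrial genes made up 0.29 to 0.93% of the counts of a culture, those of ribosomal protein genes 9.0 to 13.1% and those of ribosomal RNA 0.24 to 1.70%. None of these shares was used to leave out a library.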
